A study of Mus musculus with 12 samples.

Results

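Acetylation of lysine 27 on histone H3 (H3K27ac) was profiled by ChIP-seq, which sequences the DNA bound to a modified histone, in mesenchymal stem cells (MSCs) of bone. The intervals described here were called for H3K27ac at 2% oxygen (hypoxia) but not at 21% oxygen (normoxia), and they lay more than 1000 bp from every peak of trimethylated lysine 4 (H3K4me3) at either oxygen level. There were 257 such intervals among 5665 H3K27ac intervals at that distance from H3K4me3 (4.54%), and among 15421 H3K27ac intervals in all. They are called hypoxia-only distal intervals below. The remaining distal intervals were 143 normoxia-only intervals (2.52% of the 5665) and 5265 intervals called at both oxygen levels, which are named shared. Over all H3K27ac intervals, promoters included, 589 (3.82%) were hypoxia-only. Because the members were selected on the presence or absence of these calls, the counts, the peak scores and the direction of the change describe the selection and are not findings.

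The cells came from wild-type male C57BL/6N mice of 3 to 5 months and were sorted as CD45-/TER-119-/CD140a+/Sca-1+ cells. Both groups carried the same genotype and differed in the oxygen of the culture. A list of peaks was deposited for each mark and oxygen level, 4 in all, and each combined 2 libraries. The 12 libraries included 4 of input chromatin. The lists carry neither read counts nor values per library, so depth and the spread between libraries are unknown and no difference below could be tested over replicates. Shares are given with 95% Wilson intervals, differences between shares with 95% Newcombe intervals, and medians with 95% order-statistic intervals. All of these cover counting error only, and neighbouring intervals are not independent. As a check of the cell label, 12 of 13 MSC marker genes had H3K4me3 at a start, and Ly6a, which encodes Sca-1, did not. Among 5 endothelial markers 1 had H3K4me3 at a start (Kdr), and none of the 4 muscle, 3 mature osteoblast and 3 fat cell markers did.

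H3K27ac is laid down by the acetyltransferases p300 and CBP and is found at active promoters and at active enhancers, the distal elements that raise transcription of a gene from a distance. H3K4me3 marks promoters, so H3K27ac far from H3K4me3 is widely used to list candidate enhancers. In stromal cells such elements often carry binding sites for AP-1 (dimers of the Fos and Jun families, which respond to growth factor and stress signalling), TEAD (the partners of YAP and TAZ) and RUNX (which includes the bone regulator RUNX2). Cells at low oxygen also stabilise hypoxia-inducible factors (HIFs), which bind a short hypoxia response element (HRE). None of these proteins was measured here, and letters that match a motif do not show that a factor was bound.

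A few stretches show what these intervals hold. The reference sequence (RefSeq, GRCm38, the assembly of mm10) is printed in lower case, with motif matches in capitals. The first 3 are from the hypoxia-only intervals with the highest scores and no shared H3K27ac peak within 5000 bp, over 300 bases around the motif match closest to the midpoint. The Ezh1 stretch holds an HRE core in capitals, the Rbpj stretch an E-box and a TEAD match, and the Ywhaq stretch a C/EBP match.
Upstream of Ezh1, chr11:101231007-101231306, plus strand: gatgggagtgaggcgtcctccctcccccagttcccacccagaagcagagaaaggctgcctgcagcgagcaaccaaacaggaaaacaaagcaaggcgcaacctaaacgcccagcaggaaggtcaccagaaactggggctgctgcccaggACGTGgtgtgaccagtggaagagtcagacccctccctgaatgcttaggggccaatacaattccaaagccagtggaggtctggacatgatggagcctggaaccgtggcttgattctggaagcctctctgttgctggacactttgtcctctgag
Intron of Rbpj, chr5:53489560-53489859, plus strand: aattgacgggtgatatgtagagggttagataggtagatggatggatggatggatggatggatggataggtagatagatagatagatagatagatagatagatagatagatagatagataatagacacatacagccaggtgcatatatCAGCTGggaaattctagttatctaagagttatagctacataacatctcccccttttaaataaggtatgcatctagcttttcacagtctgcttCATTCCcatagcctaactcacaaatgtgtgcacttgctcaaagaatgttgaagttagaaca
Upstream of Ywhaq, chr12:21426496-21426795, plus strand: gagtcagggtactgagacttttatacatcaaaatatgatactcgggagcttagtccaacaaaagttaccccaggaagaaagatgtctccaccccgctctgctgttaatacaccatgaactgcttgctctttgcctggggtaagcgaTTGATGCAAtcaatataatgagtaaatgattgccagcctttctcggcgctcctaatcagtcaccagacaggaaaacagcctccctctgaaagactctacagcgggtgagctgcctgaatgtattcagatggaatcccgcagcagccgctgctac
The next 4 show the AP-1 motif, in capitals. Over the central 500 bp it matched in fewer hypoxia-only intervals (15.6%) than normoxia-only (32.2%) or shared ones (21.0%). These 4 stretches are 100 bases each, from hypoxia-only intervals nearest to genes of the functional lists. They were chosen for a match after the motif counts had been seen, so they do not show how common it was.
Nearest to Fzd1, chr5:4918023-4918122, plus strand: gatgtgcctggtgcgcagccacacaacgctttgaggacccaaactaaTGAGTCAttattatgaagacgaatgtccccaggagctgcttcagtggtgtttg
Nearest to Irs2, chr8:10925609-10925708, plus strand: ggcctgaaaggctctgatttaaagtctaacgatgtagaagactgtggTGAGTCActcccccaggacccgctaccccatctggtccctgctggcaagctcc
Nearest to Map3k4, chr17:12266457-12266556, plus strand: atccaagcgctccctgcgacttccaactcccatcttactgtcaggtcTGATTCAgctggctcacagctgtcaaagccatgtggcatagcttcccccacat
Nearest to Zeb2, chr2:45070124-45070223, plus strand: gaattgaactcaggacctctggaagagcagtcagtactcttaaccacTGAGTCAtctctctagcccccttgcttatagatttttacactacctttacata
In the Zeb2 stretch 72% of the bases were repeat-masked in the reference and in the other 3 none were. Whether the Zeb2 match itself lay in masked bases was not recorded.

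The intervals were mostly short and low-scoring, with a few very wide ones inside genes. Their median width was 4500 bp (95% interval 4000 to 5000), the quartiles were 3000 and 7500 bp, and the range was 500 to 41000 bp. Normoxia-only distal intervals had a median of 4000 bp (3500 to 4500) and shared distal intervals 5500 bp. Shared distal intervals in the lowest-scoring 25% of the hypoxia list had the same median as the members, 4500 bp (4000 to 4500). Together the members covered 1526 kb, and 33 of them were wider than 10000 bp. Each peak carries a score set by the authors, from 50 to 160 or at a top value of 1000, which is not defined in the sources used here. It was at or under 60 in 166 of 257 members (64.6%) and above 100 in 6. The lowest-scoring 25% of the whole hypoxia list ended at a score of 73, and 83.3% of the members lay below it, against 34.8% of shared distal intervals. Of the normoxia-only distal intervals, 83.9% had a score in the normoxia list below the same limit, which was taken from the hypoxia list.

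**Figure D1:**
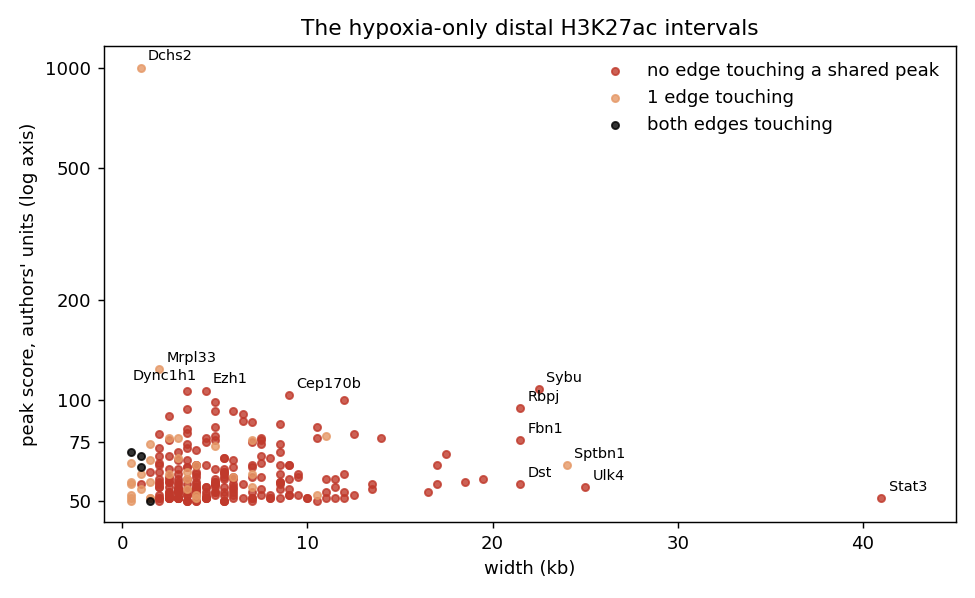
Width in kb (horizontal) and peak score (vertical, log axis) of the 257 hypoxia-only distal intervals, coloured by how many edges touch a shared H3K27ac peak. Gene names mark scores above 100 or widths of 20 kb or more. Most points sit at scores of 50 to 60 and under 10 kb, and the widest, over Stat3 and Stat5a at 41 kb, has a score of 51.

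The 10 highest scores among the 193 members without a shared peak within 5000 bp ran from 87 to 108. The first was chr15:44663501-44686000 (score 108, 22500 bp), which ran over the 3′ end of Sybu, the gene of a kinesin-binding protein of axonal transport. The second, chr11:101229001-101233500 (score 107), lay 2538 bp upstream of the start of Ezh1, a histone H3 lysine 27 methyltransferase. The third, chr12:112738501-112747500 (score 104), covered the last exons of Cep170b. An interval of 21500 bp in an intron of Rbpj, which encodes the DNA-binding effector of Notch signalling, followed at chr5:53479001-53500500 with a score of 95. The interval upstream of Ywhaq, a 14-3-3 protein gene, scored 94 (chr12:21425001-21428500).

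The interval nearest to Car8 (chr4:7666501-7672500, score 93) lay 566541 bp from that start and 674500 bp from any shared H3K27ac peak, the widest such gap of all 257. The interval nearest to Efnb1, which encodes the cell-contact ligand ephrin-B1, lay 148371 bp from its start (chrX:99284501-99289500, score 93). The interval nearest to Nmbr, a bombesin-family peptide receptor gene, lay 629282 bp away (score 91). An interval inside the predicted gene Gm28729 (score 90) and an intronic interval of Cog5, nearest to the start of Hbp1 (score 87), completed the set. The highest scores without regard to neighbours belonged to small intervals that touched a shared peak, with 1000 for a 1000 bp interval in Dchs2 and 124 for a 2000 bp interval in Mrpl33.

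The 10 widest members ran from 17500 to 41000 bp. The widest (chr11:100884001-100925000) covered parts of Stat3 and Stat5a, the genes of cytokine-activated transcription factors. The second (chr9:120947001-120972000, 25000 bp) held the 3′ ends of Ctnnb1 and Ulk4, which face each other. Ctnnb1 encodes beta-catenin, the transcriptional co-activator of Wnt signalling. Next came intervals in Sptbn1 (24000 bp, touching a shared peak), Sybu (22500 bp), and Rbpj, Fbn1 and Dst (21500 bp each). Sptbn1 and Dst encode a spectrin and a cytoskeletal linker protein, and Fbn1 encodes fibrillin-1, the main protein of extracellular microfibrils. Fto (19500 bp), Flna (18500 bp), which encodes the actin cross-linker filamin A, and Celf1 (17500 bp) completed the set. All 10 had their midpoint inside a protein-coding gene.

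Gene bodies were examined next. The midpoint of 148 of 257 members lay inside a protein-coding gene (57.6%, 95% interval 51.5 to 63.5). The share was 52.4% in normoxia-only and 57.0% in shared distal intervals, and the difference from shared was 0.57 percentage points (-5.68 to 6.61), so no difference was resolved. By annotation, 137 midpoints were intronic, 6 in a UTR, 5 in a coding exon and 109 between protein-coding genes. Of the 148 host genes counted once per member, 131 (88.5%, 82.4 to 92.7) had a start in an H3K4me3 peak called at both oxygen levels, close to the 87.5% of shared distal intervals.

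Within the host gene fewer midpoints lay in the middle than among shared intervals, and more toward the 3′ end. This measure was not among those planned. Where several protein-coding genes held a midpoint, the longest was taken as the host, and the position depends on that choice. When each host gene was cut into 3 equal parts, 63 of 148 midpoints fell into the last part (42.6%, 34.9 to 50.6), 46 into the first (31.1%, 24.2 to 38.9) and 39 into the middle (26.4%, 19.9 to 34.0). Among shared distal intervals 28.8% fell into the first part and 38.1% into the middle. The last part held 33.1% of them, a difference of 9.42 points (1.56 to 17.6), and the share was higher for hypoxia-only intervals on 13 of 20 chromosomes. Normoxia-only intervals had 30.7% there, and this difference of 11.9 points had an interval (-1.65 to 24.2) that included 0.

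The annotated 3′ end of a protein-coding gene lay inside 25 of the 257 members (9.73%, 6.68 to 14.0), against 3 of 143 normoxia-only (2.10%) and 320 of 5265 shared distal intervals (6.08%). The difference was 7.63 points (2.69 to 12.1) from normoxia-only and 3.65 points (0.524 to 7.93) from shared intervals. This measure was chosen after the named intervals had been seen. Wider intervals hold more gene ends, so width was held apart. Among intervals of 5000 bp or more, 19 of 126 members held a gene end (15.1%, 9.87 to 22.4), against 1 of 52 normoxia-only (1.92%, 0.340 to 10.1) and 8.79% of shared intervals (7.83 to 9.86). Among narrower ones the shares were 4.58% (2.12 to 9.63), 2.20% and 2.48%.

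Among the genes that ended in a member were Lmna (nuclear lamins A and C), Flna, Emilin2 (an elastic-fibre glycoprotein), P3h1 (a collagen prolyl 3-hydroxylase), Epha2 (an ephrin receptor), Acvrl1 (a receptor of the TGF-beta family), Stat3, Stat5a and Ctnnb1. These examples were picked after the genes had been seen, and no functional group was counted among them. The Epha2 interval (chr4:141320501-141332500) had a score of 100 and the Acvrl1 interval (chr15:101139001-101147500) a score of 85. The Lmna interval (chr3:88480001-88487000) scored 60 and touched a shared peak. Sybu, Cep170b, Celf1 and Plin5 had scores of 108, 104, 86 and 82. The other members of this set scored 70 or less.

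**Figure D2:**
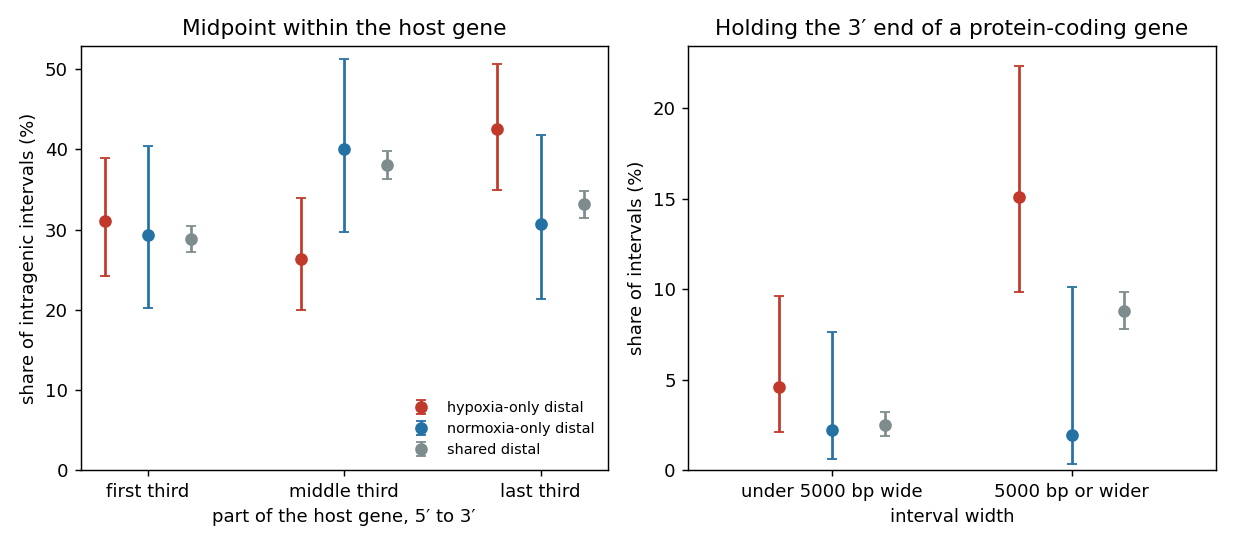
Left, share of intragenic intervals (vertical, %) whose midpoint fell in each part of the host gene; right, share of intervals holding the 3′ end of a protein-coding gene, by width. Points are shares with 95% Wilson intervals for the 3 distal classes; hypoxia-only intervals stand at 42.6% in the last part of the gene and at 15.1% for gene ends among the wider intervals.

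The nearest protein-coding start lay at a median of 31777 bp from the edge of a member (27087 to 38595), at 35410 bp for shared (33670 to 37125) and at 41612 bp for normoxia-only intervals (32318 to 53003). A start within 10000 bp was found for 57 members (22.2%, 17.5 to 27.6), against 11.9% of normoxia-only intervals, a difference of 10.3 points (2.44 to 17.3). The 18.1% of shared intervals differed by 4.04 points, with an interval (-0.728 to 9.60) that included 0. Without the members that touch a shared peak, 17.7% had a start within 10000 bp, and the interval of the difference from normoxia-only then included 0 (5.88 points, -2.05 to 13.0). Another 57 members lay more than 100000 bp from any start. The nearest start carried H3K4me3 at both oxygen levels for 178 of 257 members (69.3%, 63.4 to 74.6), much as for normoxia-only (67.8%) and shared intervals (68.4%). At 15 members the interval itself held a protein-coding start, by the rule without H3K4me3, including starts of Plin4, Clec3b and Wasf2.

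The 257 members had 242 different nearest genes. Of these, 228 had a single member, 13 had 2, and 1, Gas1, had 3. Gas1 encodes a membrane protein that binds Hedgehog ligands. Its 3 intervals (scores 61, 67 and 51) lay at 140441 bp downstream and at 43636 and 186136 bp upstream of the start, among 9 distal intervals nearest to this gene. Both distal intervals nearest to Celf1 and both nearest to Efnb1 were hypoxia-only. At Ebf1, by comparison, 1 of the distal intervals was hypoxia-only and 11 were shared.

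Lists of genes with known roles were counted by nearest start. Over 9 lists of 542 genes, 28 of 583 distal intervals were hypoxia-only (4.80%), close to the 4.54% over all distal intervals. The lists ranged from 0 to 6 members each, and no list was set apart by a test. These lists were written with earlier results of these data known.

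The bone formation list, which holds Runx2, Sp7 and collagen I genes, had 0 hypoxia-only among 79 distal intervals (upper limit 4.64%), with 77 shared and 2 normoxia-only. The hypoxia response list, with Vegfa and the glycolytic HIF targets, had 0 among 35 (upper limit 9.89%). Both limits include the 4.54% of all distal intervals. The counts hold for the nearest start only: 1 member lay inside a gene of the bone formation list, Fgfr2 (score 64), with its nearest start at Lhpp. The cartilage list had 2 of 25. One was an interval in an intron of Sox6 (chr7:115623501-115632500, score 64) and the other lay 360277 bp from the start of Sox9, the regulator of chondrocyte fate (chr11:113142501-113146000, score 52).

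The fat cell formation list had the highest share, 6 of 50 (12%, 5.62 to 23.8), with 0 normoxia-only and 44 shared intervals. Its lower bound lay above the share of all distal intervals, but the list was 1 of 9 and the intervals were not adjusted for this. It also rested on the pair in Fto, since with that pair counted once the share was 5 of 49 (10.2%, 4.44 to 21.8). The members were an interval over a start of Plin4 and the 3′ end of Plin5 (chr17:56108501-56112000, score 82), whose proteins coat lipid droplets, and an intronic interval of Ebf1, an early adipogenic regulator (score 66). They also included both intervals in Fto (scores 58 and 56), 1 in an intron of Zfp423, a preadipocyte factor (score 56), and 1 at 78458 bp from the start of Irs2, an insulin signalling adaptor, whose AP-1 match is printed above (score 54).

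The Wnt signalling list had 6 of 72 (8.33%, 3.88 to 17.0). Besides Ctnnb1 (score 55), these were a pair upstream of Lef1 (scores 79 and 50), whose protein is a DNA-binding partner of beta-catenin, an interval in Cdk14 nearest to the receptor gene Fzd1 (score 54), an intron of Nkd1, an inhibitor of the pathway (score 53), and an interval 101663 bp upstream of the receptor gene Fzd8 (score 51).

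The other lists lay near the overall share. TGF-beta and BMP signalling had 4 of 84, at Zeb2 (score 83), Tgfbi and Zeb1 (55 each) and Tgif1 (51). Zeb1 and Zeb2 encode repressors that drive mesenchymal states. The MAP kinase cascade had 3 of 53, at the feedback inhibitor gene Spry2 (score 72), the kinase gene Map3k4 (57) and the phosphatase gene Dusp10 (53). Extracellular matrix had 4 of 104, at the basement membrane gene Nid2 (score 52), the collagen genes Col27a1 and Col8a2 (51 each) and the protease inhibitor gene Timp2 (50).

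The stable peaks around the members were examined next. The median gap to the nearest shared H3K27ac peak was 15000 bp (11500 to 19500), against 31000 bp (22500 to 39000) for normoxia-only intervals. For shared distal intervals the gap to another shared peak was 20500 bp (19000 to 21500). No shared peak lay within 50000 bp of 45 members (17.5%, 13.4 to 22.6), of 35.7% of normoxia-only and of 24.6% of shared intervals. The difference was -18.2 points (-27.3 to -9.17) from normoxia-only and -7.11 points (-11.4 to -1.86) from shared intervals. It was negative against normoxia-only intervals on 15 of 20 chromosomes. Without the touching intervals the difference from shared was -4.17 points (-9.12 to 1.76), so that comparison rests on intervals that touch, while the difference from normoxia-only stayed at -17.3 points (-27.0 to -7.65).

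A shared peak was joined directly to 37 members (14.4%, 10.6 to 19.2), 33 on 1 edge and 4 on both. Among normoxia-only intervals 8 of 143 touched a shared peak (5.59%, 2.86 to 10.7), and the difference was 8.80 points (2.50 to 14.3). Shared intervals could hardly touch each other, because adjoining bins with the same calls are merged. Touching members were narrower, with a median width of 2500 bp on 1 edge and 1000 bp on both, against 5000 bp for the 220 that touched none. Their median GC content was 49.6% and 57.1%, against 46.3%.

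The touching members had 41 shared partners, of which 12 touched or overlapped an H3K4me3 peak. The score of the partner was higher in the hypoxia list for 36, equal for 5 and higher in the normoxia list for none, with medians of 89 and 75. Among all 14614 shared H3K27ac peaks the hypoxia score was higher for 39.9%. For the 220 members that touched no peak, the nearest shared peak scored higher in hypoxia for 102 (46.4%, 39.9 to 53.0) and higher in normoxia for 43. The corresponding value for 135 normoxia-only intervals was 34.8% (27.3 to 43.2). These scores come from the same joint calling that defined the members and were not tested.

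**Figure D3:**
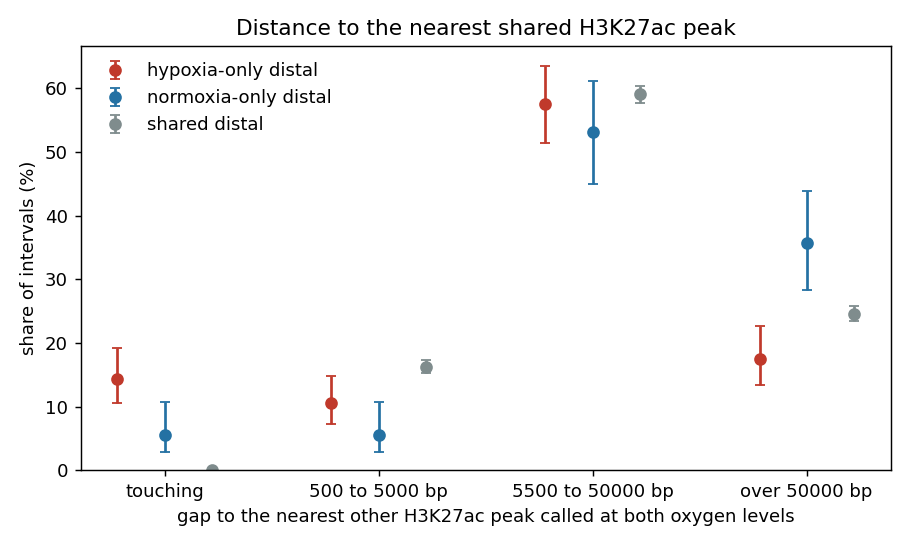
Share of intervals (vertical, %, with 95% Wilson intervals) in each range of the gap to the nearest other shared H3K27ac peak, for hypoxia-only, normoxia-only and shared distal intervals. Hypoxia-only intervals lie above both other classes where a shared peak is touched (14.4%) and below both where the gap is over 50000 bp (17.5%, against 35.7% of normoxia-only and 24.6% of shared intervals).

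Clustering was limited. Another member lay within 50000 bp of 22 members (8.56%, 5.72 to 12.6), and these formed 11 pairs and no chain of 3 or more. Only 2 of 143 normoxia-only intervals had another of their kind so near (1.40%), but a smaller class has fewer intervals to lie near. Among the 254 distal intervals within 50000 bp of a member, 22 were members themselves (8.66%, 5.79 to 12.8), 3 were normoxia-only and 229 were shared. Within 10000 bp the share was 12 of 88 (13.6%, 7.98 to 22.3). Both 95% intervals lay above the 4.54% of all distal intervals, but each pair enters these counts with both of its members. The counts are therefore not independent, these intervals are too narrow, and an excess over 4.54% was not tested. Within 50000 bp of normoxia-only intervals, 2 of 97 distal intervals were normoxia-only (2.06%, 0.567 to 7.21), beside 2.52% of all distal intervals. With the lowest-scoring 25% of the hypoxia list left out, 0 of the remaining 43 members had another within 50000 bp. That filter kept few members, and a pair only where both passed, so it cannot show whether pairing depends on score. Domains called in adjoining bins can be split into several intervals, so close members are not separate observations.

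The 11 pairs, named here after their positions had been seen, lay at Wdr26, Xrcc3 and Klc1, Ppif and Zcchc24, Lrtm1 and Cacna2d3, Prr5, Lrrc8a and Phyhd1, Celf1, Lef1, Rbpj, Fto and Efnb1. A shared peak lay between the members at Wdr26 and at Lrrc8a, and at the other pairs there was none. The pair at Lef1 was 1000 bp apart (chr3:130940501-130944500 and chr3:130945501-130947500). The pair in Rbpj was 4000 bp apart and together covered 27500 bp. The pair in Celf1 was 45000 bp apart, and its second interval (score 86) held the 3′ end of the gene.

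The members were spread over all autosomes and the X chromosome. By chromosome they made up from 2.20% (chromosome 18, 5 of 227, 0.944 to 5.05) to 8% of the distal intervals (X, 4 of 50, 3.15 to 18.8). Chromosome 11 had the most, 26 of 352 (7.39%, 5.09 to 10.6), and its lower bound lay above the overall 4.54%. Chromosome 14 had the same share with fewer intervals (15 of 203, 4.53 to 11.8). Chromosome 1 had 10 of 409 (2.44%, 1.33 to 4.44), below the overall share, and 13 normoxia-only intervals. No adjustment was made for the 20 chromosomes compared.

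**Figure D4:**
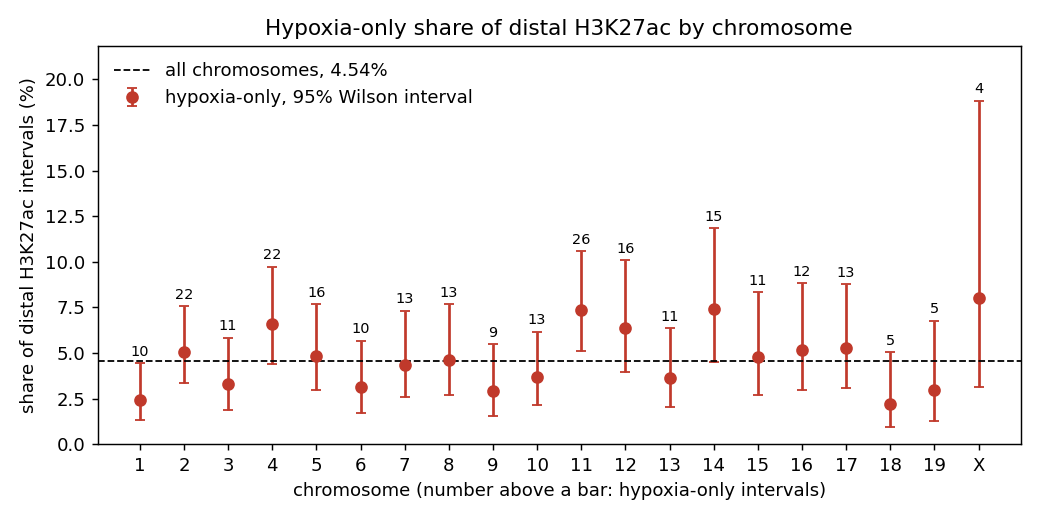
Hypoxia-only share of the distal H3K27ac intervals (vertical, %) on each chromosome, with 95% Wilson intervals and the number of hypoxia-only intervals above each bar; the dashed line is the share over all chromosomes, 4.54%. Chromosome 11 lies above the line and chromosome 1 below it, and most other bars cross it.

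The sequence of the intervals was then compared. The median GC content was 46.5% (45.8 to 47.3), against 43.5% in normoxia-only and 44.8% in shared distal intervals, and the median was higher than that of shared intervals on 18 of 20 chromosomes. It was 47% over the central 500 bp. CpG dinucleotides followed, with medians of 11.2, 8.4 and 10.3 per kb. Repeat-masked bases made up a median of 18% (16.6 to 19.3), against 20.3% and 20.2%. A median of 5 protein-coding genes started within 250000 bp of a member (4 to 6), against 4 in both other classes.

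Motifs were searched on both strands of the central 500 bp. AP-1 (TGANTCA) matched in 40 of 257 members (15.6%, 11.6 to 20.5). It matched in 46 of 143 normoxia-only (32.2%, 25.1 to 40.2) and 1104 of 5265 shared distal intervals (21.0%, 19.9 to 22.1). The difference was -16.6 points (-25.5 to -7.95) from normoxia-only and -5.40 points (-9.48 to -0.352) from shared intervals. Against the shared distal intervals with scores below 73, of which 20.5% had a match, the difference was -4.96 points, with an interval (-9.32 to 0.289) that included 0. It also included 0 without the touching intervals (-4.61 points from all shared intervals, -9.06 to 0.950). The difference from normoxia-only intervals was negative on 15 of 20 chromosomes. Over the whole interval there were 0.350 AP-1 matches per kb in members, 0.510 in normoxia-only and 0.404 in shared intervals. With only the matches outside repeat-masked bases counted, the shares were 14.4%, 30.1% and 19.4%.

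GC content differed between the classes, so AP-1 was also counted within 3 ranges of it holding equal numbers of distal intervals. In the lowest range 25.5% of members (15.5 to 38.9) and 30% of normoxia-only intervals (20.5 to 41.5) had a match, and no difference was resolved. In the middle range the shares were 7.32% (3.40 to 15.1) and 34.0% (22.2 to 48.3), and in the highest 16.9% (11.4 to 24.5) and 34.6% (19.4 to 53.8). Shared intervals had 22.3%, 21.6% and 18.9%. The first 500 bp of each interval gave a comparison away from the centre. There AP-1 matched in 11.3% of members (7.97 to 15.7), 16.8% of normoxia-only (11.5 to 23.8) and 15.2% of shared intervals (14.3 to 16.2), so the classes lay closer together at the edge than at the centre.

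For the other motifs the shares of the classes over the central 500 bp lay close together. The HRE core (ACGTG or GCGTG) matched in 38.5% of members, 35.7% of normoxia-only and 39.3% of shared intervals. RUNX (TGTGGT) matched in 39.7%, 37.1% and 36.1%, and TEAD (GGAATG) in 32.7%, 32.2% and 29.0%. The E-box (CAGCTG) matched in 26.5%, 21.7% and 25.2%, and C/EBP (TTGCNNCAA) in 4.28%, 2.10% and 4.75%. Over whole intervals the HRE core had 1.36 matches per kb in members, 1.06 in normoxia-only and 1.23 in shared intervals. In the first 500 bp it matched in 42.8% of members (36.9 to 48.9), 39.2% of normoxia-only and 37.7% of shared intervals (36.4 to 39.0). By GC range, lowest to highest, those shares were 33.3%, 52.4% and 40.3% in members. They were 27.1%, 48.9% and 53.8% in normoxia-only and 30.1%, 37.3% and 45.8% in shared intervals. Over the central 500 bp the HRE core shares by GC range were 21.6%, 34.1% and 48.4% in members. Normoxia-only intervals had 22.9%, 48.9% and 46.2% there, and shared intervals 30.1%, 40.8% and 47.1%. Each motif was searched by itself, and matches of different motifs could share bases.

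**Figure D5:**
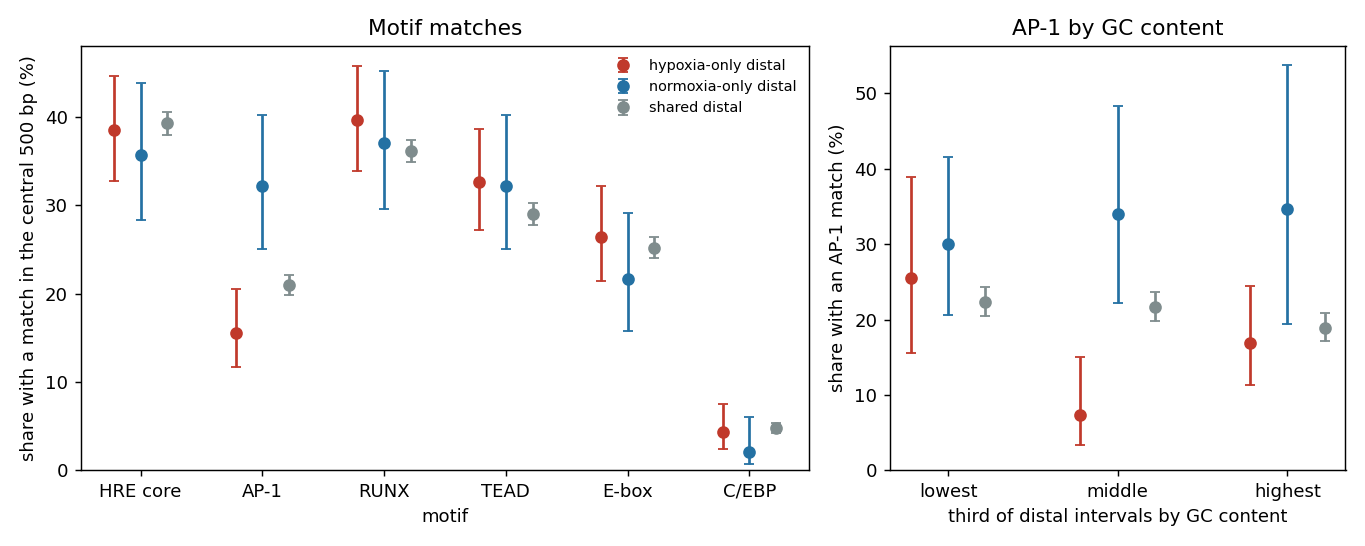
Left, share of distal intervals (vertical, %) with a motif match in the central 500 bp, for 6 motifs and 3 classes; right, the same for AP-1 within 3 equal-sized ranges of GC content. Points are shares with 95% Wilson intervals. AP-1 matched in 15.6% of hypoxia-only and 32.2% of normoxia-only intervals. Their bars are apart in the middle GC range and overlap in the lowest and highest.

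The distance rule left few intervals near its limit. Of the 589 hypoxia-only H3K27ac intervals, 328 touched or overlapped an H3K4me3 peak. Another 2 lay 500 bp and 2 lay 1000 bp away and were left out, nearest to P4ha2 (score 125), Ddr1 (51), Mgst3 (50) and Gadd45b (60). Just inside the limit, 2 members lay 1500 bp from H3K4me3, the interval upstream of Ezh1 (score 107) and an interval nearest to Lrrc8a (64). No member lay at 2000 or 2500 bp, and 4 lay at 3000 bp.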

How the data were processed

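The submitters' processing notes name Bowtie2, Picard and the mm10 build. According to the study's methods, duplicates were removed and peaks were called with chromstaR in differential mode, which fits both oxygen levels together. The authors deposited 1 BED list per mark and oxygen level with a score per peak, whose definition is not given in the sources used here. Overlapping intervals of different lists were identical throughout, so an interval was hypoxia-only, normoxia-only or shared as a whole. All boundaries were multiples of 500 bp. Distances were measured between nearest edges against GENCODE M21 basic genes and the GRCm38 reference, with python 3.11.15, numpy 2.4.6, pandas 2.3.3, scipy 1.17.1 and pysam 0.24.0, and figures with matplotlib 3.10.9. Distance, motif and interval routines were tested on simulated data. The members and gene lists were chosen with earlier results of these data known. Intervals were named by rule: the 10 highest scores with no shared peak within 5000 bp, the 10 widest, chains of 3 or more members within 50000 bp, up to 4 members per gene list by score, and those near the 1000 bp limit as counts. Genes, pairs and gene ends named beyond it were picked after their values had been seen. Of the listed symbols, 1 (Ero1a) and the marker Ly76 had no match in the annotation. The counts of 1 gene list and 1 marker list are not reported here. No promoter, miRNA or protein table was used. Alternatives were other distance limits, gene sets, score and neighbour filters and motif windows.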

Additional observations from a re-analysis of the deposited data

How the results depend on the processing

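The intervals carry counting error only, since the lists hold no values per library, and leaving out a replicate was not possible. No paired analysis was possible because no value of a single numbered library exists in the lists. Of 56 values recomputed under an alternative, 38 stayed and 18 moved. A value stayed if it lay within the 95% interval of the reported value, or within 1.5 times the reported count. Reversal of a direction was not assessed. Of those that moved, 6 were motif counts given per kb in place of a share, which were counted as moved whatever their value. Requiring only that no base be shared with H3K4me3 raised the number of intervals from 257 to 413, and leaving out the lowest-scoring 25% of the hypoxia list cut it to 43. Among those 43, 65.1% lay inside a protein-coding gene, 0% had another member within 50000 bp and 11.6% had no shared peak within 50000 bp, the last chosen after seeing the data. For differences the same score limit was applied to the other classes, which left 23 normoxia-only and 3433 shared distal intervals. Normoxia-only intervals were filtered by their score in the normoxia list. After this filter the differences in AP-1 matches had 95% intervals that included 0 (-14.2 points, -36.2 to 6.03, from normoxia-only, and -4.93 points, -13.2 to 8.83, from shared). So did those in gene ends (14.0 points, -2.16 to 27.3, and 7.40 points, -0.0502 to 20.7). Counting all annotated genes gave 66.9% inside a gene and a median of 10480 bp to the nearest start. A shared peak lay within 5000 bp of 24.9% of members. Another member lay within 10000 bp of 4.67%. AP-1 matched in 11.3% of members in the first 500 bp and at 0.350 matches per kb over whole intervals. Without touching intervals, chosen after seeing the data, the AP-1 difference was -17.0 points (-26.3 to -7.78) from normoxia-only. The causes of these shifts were not tested.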
